A study of Mus musculus with 12 samples.

Results

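Egr1, Egr2, Egr3, Nab1, Nab2, Nr4a1, Nr4a2, Ier2 and Ier3 are 9 genes grouped here as early-response genes and the NAB corepressors of EGR factors. Their messenger RNA was followed in mouse blood cells with and without STAT5. They were chosen by symbol, and every probe set that the array annotation pairs with 1 of these symbols alone was taken. This gave 18 probe sets of the 45101 on the array, and all 18 were among the 21363 probe sets, of 11815 genes, that were bright enough to be tested. The arrays measured 4 groups of 3 samples. These were knockout treated cells, knockout untreated cells, control treated cells and control untreated cells, and the knockout removes both Stat5a and Stat5b in the blood cells of mice. The series asks how STAT5A and STAT5B act in the formation of granulocytes driven by GM-CSF. The treatment field of the labels reads "GMP". Some untreated samples have those letters in their titles too, and they may stand for an agent or for the cell type, so the samples are called treated and untreated with no further name. Age, the promoter behind the deletion, the length of treatment and the number of mice per sample are not given in the sources used here. Separate animals are not stated either, so a p-value here covers the spread between these samples, and some of that spread may be technical.

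The EGR proteins are zinc-finger transcription factors whose genes are switched on within minutes of a growth-factor or cytokine signal, without new protein synthesis. NAB1 and NAB2 bind EGR1, EGR2 and EGR3 and mostly repress the genes these factors occupy, and NAB2 is itself induced by EGR factors, which makes it a negative feedback arm. NR4A1 and NR4A2 are orphan nuclear receptors that are induced as fast as the EGR genes. IER2 and IER3 are small proteins of the same early class, and IER3 is known for its role in cell survival. In myeloid progenitors EGR2 and NAB2 are known from mouse work to act with the lineage factor PU.1 towards macrophage fate and to oppose GFI1, the repressor that favours neutrophils.

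Each date given in the sample titles held 1 array of every group, and date entered every fit as a block. The 4 arrays of date 2 stood apart. On them the ratio of 3' to 5' signal, a sign of RNA or cDNA length, ran between 20.8 and 266 for Actb, against 1.14 and 2.05 on dates 1 and 3, and between 28.2 and 80.7 for Gapdh, against 1.56 and 3.9. Within date 2 the Actb ratio was 59.5 on the control untreated and 266 on the control treated array. It was 28.7 on the knockout untreated and 20.8 on the knockout treated array. For Gapdh these ratios were 59.9, 80.7, 42.9 and 28.2, so the control arrays had the higher ratios. A block for date does not remove a difference between arrays of the same date. Of that date's titles, the one for knockout treated cells bears a different number tag. Stat5a gave 26.7 to 101 on the 6 knockout arrays and 375 to 1147 on the 6 control arrays, and Stat5b 1.80 to 60.5 and 287 to 1531, so the genotype labels fitted the signals on all 12 arrays. All 10 markers of granulocyte and macrophage progenitors were bright enough to be tested, and their summed signal was 75361 to 124448 on knockout treated arrays, 80046 to 185627 on knockout untreated arrays, 75026 to 222026 on control treated arrays and 85042 to 179811 on control untreated arrays. In such bulk samples, more cells of a type and more RNA per cell cannot be told apart.

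Short sequences at the starts of these genes are shown first, because EGR factors and the serum response factor, which binds the CArG box, are the textbook regulators of this class and the binding letters can be read directly. Of the 9 genes, 6 had a start in the RefSeq table of build GRCm38.p6, with 10 windows of 300 bases in all (250 before and 50 after the start). Egr1, Egr3 and Ier2 are named only. Among the members the CArG box was found in the windows of Egr2 alone, and it was in 1.63% of the 32851 windows of all genes. Both strands were searched, and the box is symmetric. The capitals below mark it at positions -72 to -63 from each of 2 Egr2 starts. The first lies at chr10:67537484-67537513 and the second at chr10:67537787-67537816, both on the plus strand and within the annotated span of Egr2 (chr10:67534469-67542188).
Egr2, first start: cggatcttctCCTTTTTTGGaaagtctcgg
Egr2, later start: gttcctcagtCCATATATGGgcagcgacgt

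The letters that EGR factors bind, GCGNGGGCG with G or T at N, were searched on both strands and found in 3.47% of all windows. Among the members they occurred in the windows of Nab1, 3 times, and Nr4a1, once. The capitals mark the match, and the first Nab1 line and the Nr4a1 line show it on the opposite strand. The Nab1 sites are on the minus strand at chr1:52500571-52500600, chr1:52500539-52500568 and chr1:52500468-52500497, inside the annotated gene (chr1:52455849-52500712), and the matches are at positions -141 to -133, -109 to -101 and -38 to -30 from a Nab1 start. The Nr4a1 site is on the plus strand at chr15:101266775-101266804, within the gene span (chr15:101253902-101274795), and the match is at positions -60 to -52 from a start.
Nab1, first site: cgccccgcggcCGCCCACGCcgggatctgc
Nab1, second site: cactcggccgcGCGTGGGCGggagccggag
Nab1, last site: cgcggggcgggGCGGGGGCGgcggaggtgg
Nr4a1, site: tgcgtcagtggCGCCCCCGCccctctccat

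Nab2, whose signal rose with treatment in both genotypes, held none of the searched motifs in its window. Its 250 bases before the start lie at chr10:127666704-127666953 on the minus strand, next to the gene at chr10:127660918-127666703, and 72.8% of them are G or C.
Nab2, upstream: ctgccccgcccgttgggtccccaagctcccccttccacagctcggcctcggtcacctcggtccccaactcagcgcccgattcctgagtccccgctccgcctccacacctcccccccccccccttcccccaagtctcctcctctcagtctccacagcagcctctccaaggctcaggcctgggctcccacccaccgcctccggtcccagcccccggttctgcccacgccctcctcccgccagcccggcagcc
The full cyclic AMP response element, TGACGTCA, the ETS letters CCGGAAGT and the STAT5 palindrome TTCNNNGAA were in none of the 10 member windows, against 1.79%, 3.89% and 8.3% of all windows. The shorter TGACG, a part of the full element that was searched after the sequences had been seen, was in the windows of 4 of the 6 genes and in 20.8% of all windows. A match is a description of letters and no match says only that these letters are not in the window. No binding was measured.

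Nab1 and Nab2 rose with treatment in cells of both genotypes, each on at least 1 probe set. Egr2 passed the test in each genotype on a different probe set, Egr3 in knockout cells and Ier3 in control cells, and none of the 18 probe sets fell past the threshold in either. In knockout cells 5 of 18 probe sets were called higher (27.8%), against 5.77% of all tested probe sets called higher and 2.89% called lower. In control cells 4 of 18 were called higher (22.2%), against 3.16% of all tested probe sets called higher and 1.54% called lower. A call is an adjusted p under 0.05 in limma after Benjamini-Hochberg adjustment over all 21363 probe sets. The median log2 change of the 18 probe sets was 0.62 in knockout cells and 0.63 in control cells, beside 0.01 and -0.01 over all tested probe sets. Of the 18 probe sets, 3 were bright enough on treated arrays alone (Egr2 1427682_a_at, Egr3 1436329_at and Nab1 1438819_at), so a higher reading there is partly built into the filter. Nab2 1417930_at was bright enough on 6 treated and 2 untreated arrays, and Egr2 1427683_at on 5 and 1. Both reached the 3 arrays that the filter asks for only with treated arrays, so the same limit holds for them. Among the 15 that were bright enough on at least 1 untreated array, 4 were called higher in knockout cells and 3 in control cells. These calls still include Nab2 in both genotypes and Egr2 1427683_at in knockout cells. With no filter on brightness 4 of the 18 were called higher in knockout cells and 2, Nab2 and Ier3, in control cells. Treated and untreated arrays did not overlap for 5 of 18 probe sets in each genotype, against 19.5% of all tested probe sets in knockout cells and 14.7% in control cells. Without the 4 arrays of date 2, 8 member probe sets were called higher in knockout cells and 6 in control cells, and all 9 calls made with date 2 were kept. Calls over all 21363 probe sets, in either direction, also rose in control cells without date 2, from 1004 to 1418. Without the date block 2 member probe sets were called in knockout cells and 0 in control cells, so these counts rest on the comparison within dates.

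Nab2, the corepressor that EGR factors induce, rose in both genotypes, by more than any other member in control cells. Its probe set 1417930_at read 913, 531 and 544 on knockout treated arrays of dates 1, 2 and 3, against 80.3, 46.7 and 8.03 on knockout untreated arrays. It read 683, 149 and 432 on control treated arrays, against 73.2, 11.5 and 11.4 on control untreated arrays. Every treated array of either genotype lay above every untreated array. On log2(signal + 13) the change was 3.74 ± 0.45 in knockout cells (SE, 3 arrays per group, 13.4-fold, adjusted p = 0.00159) and 3.31 ± 0.45 in control cells (9.92-fold, adjusted p = 0.00422). Several untreated values near or below 13 make these folds an understatement. Leaving out any 1 of the 12 arrays kept both calls, and without date 2 the changes were 4.02 and 3.6. Without the date block the call was lost in control cells (adjusted p = 0.0534) and kept in knockout cells (adjusted p = 0.0214).

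Nab1, the second corepressor, rose in both genotypes on its brightest probe set. Probe set 1417624_at read 8502, 8786 and 10082 on knockout treated arrays, against 4273, 3830 and 4271 on knockout untreated arrays. It read 9590, 13062 and 9503 on control treated arrays, against 4476, 5636 and 4725 on control untreated arrays. The treated arrays stood well above the untreated ones in both genotypes. The log2 change was 1.14 ± 0.22 in knockout cells (adjusted p = 0.0137) and 1.10 ± 0.22 in control cells (adjusted p = 0.0226), and the difference between these responses was 0.04 with a 95% confidence interval of -0.66 to 0.74. The control call is a narrow one, lost without any 1 of the 6 control arrays (adjusted p up to 0.110). In knockout cells it was lost without untreated array 2 or 3 or treated array 3 (adjusted p up to 0.0683), and neither was called without the date block (adjusted p = 0.0677 in knockout and 0.113 in control cells) or with only the compared groups in the fit (0.0525 and 0.0762). With no filter the control call was lost too (0.0530).

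The other Nab1 probe sets were dimmer and less even between dates. Probe set 1448781_at gave 1131, 388 and 817 on knockout treated arrays, against 416, 128 and 185 on knockout untreated arrays, and rose by 1.66 ± 0.40 (log2, adjusted p = 0.0325). It gave 736, 83.1 and 694 on control treated arrays, against 339, 36.0 and 197 on control untreated arrays, with a log2 change of 1.27 ± 0.40 that was not called (adjusted p = 0.104). Each date was higher with treatment in both genotypes, and the groups overlapped because date 2 was low throughout. The knockout call was lost in 7 of the 12 fits that left out 1 array, namely control treated 1, control untreated 3, knockout untreated 1 or 3, or any knockout treated array (adjusted p up to 0.145). It was also lost with date as a random block (0.0581), with 1 added before the log (0.0525), with no filter (0.0618) and without the date block (0.503). Probe set 1438819_at had a log2 change of 2.08 ± 0.66 in knockout cells (adjusted p = 0.0801) and 0.92 ± 0.66 in control cells (adjusted p = 0.473). The 2 dimmer probe sets moved together over the 12 arrays after the date means were removed (Pearson r = 0.944), while their r with the brightest set was 0.594 and 0.37.

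**Figure D1:**
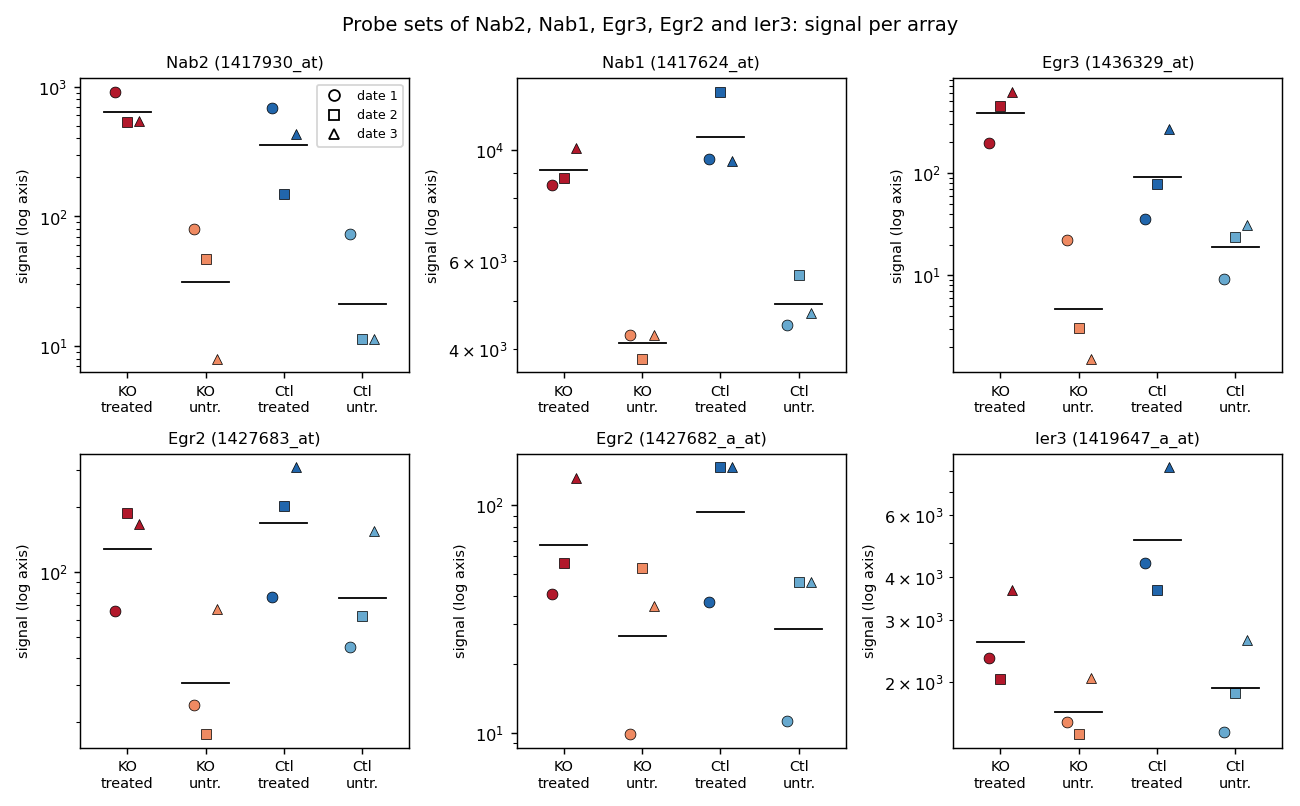
Signal of 1 probe set each of Nab2, Nab1, Egr3 and Ier3 and of both Egr2 probe sets on each of the 12 arrays, on log axes that differ between panels, for knockout treated, knockout untreated, control treated and control untreated samples. Symbols give the date and each horizontal bar the geometric mean of 3 arrays. The Nab2 panel shows no overlap between treated arrays (149 to 913) and untreated arrays (8.03 to 80.3), and Ier3 is lower on the knockout treated arrays (2034 to 3662) than on the control treated arrays (3666 to 8214).

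Among the EGR factors, Egr2 and Egr3 rose in knockout cells, each on 1 of its 2 probe sets, Egr2 was called in control cells on its other probe set, and Egr1 did not pass the test in either genotype. Egr2, the factor tied to macrophage fate beside PU.1, has 2 probe sets. On 1427683_at it read 66.0, 189 and 167 on knockout treated arrays, against 24.2, 17.6 and 67.4 on knockout untreated arrays. It read 76.8, 204 and 307 on control treated arrays, against 44.9, 62.8 and 155 on control untreated arrays. Treated arrays were higher on each date, although the groups overlapped in both genotypes. On the log2 scale it changed by 1.66 ± 0.34 in knockout cells (adjusted p = 0.0171) and 1.03 ± 0.34 in control cells (adjusted p = 0.117).

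On the second Egr2 probe set, 1427682_a_at, the call fell the other way round. It read 40.9, 56.0 and 132 on knockout treated arrays, against 9.82, 53.0 and 36.1 on knockout untreated arrays, with a log2 change of 0.96 ± 0.30 (adjusted p = 0.0783). It read 37.7, 147 and 147 on control treated arrays, against 11.3, 45.8 and 45.8 on control untreated arrays, with a log2 change of 1.32 ± 0.30 (adjusted p = 0.0369). All 12 date-by-date differences over both probe sets and genotypes were higher with treatment, the smallest being 0.06 in knockout cells on date 2 for 1427682_a_at. The responses of the genotypes differed by 0.63 ± 0.48 on 1427683_at and by -0.36 ± 0.42 on 1427682_a_at, and both 95% confidence intervals included 0. Probe set 1427682_a_at was above the filter on 3 treated arrays and on no untreated array. Its control call was lost without any 1 control array or knockout untreated array 1 (adjusted p up to 0.146). It was also lost with no filter (0.0728), with date as a random block (0.0534), with only the control groups in the fit (0.0638), with 50 added before the log (0.0559) and with trended robust variances (0.0677). The knockout call on 1427683_at was lost without knockout untreated array 2 or 3 or knockout treated array 2 (adjusted p up to 0.0635), with only the knockout groups in the fit (0.0690) and with quantile normalization (0.0599), and neither call was kept without the date block (adjusted p = 0.246 for the knockout and 0.522 for the control call).

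Egr3, a close relative of Egr2, gave different readings on its 2 probe sets. Probe set 1436329_at read 198, 450 and 618 on knockout treated arrays, against 22.0, 3.05 and 1.54 on knockout untreated arrays. It read 35.1, 78.0 and 268 on control treated arrays, against 9.23, 23.6 and 30.7 on control untreated arrays. No treated array overlapped the untreated arrays of its genotype. The log2 change was 4.29 ± 0.56 in knockout cells (19.6-fold, adjusted p = 0.00248) and 1.70 ± 0.56 in control cells (adjusted p = 0.116). The knockout call held without any 1 of the 12 arrays and without date 2 (4.01, adjusted p = 0.0263). The probe set was above the filter on treated arrays alone, and with no filter the knockout call was kept (adjusted p = 0.00456). The untreated readings are dim, 3 of 6 of them under the 13 added before the log, so the size depends on that constant (5.94 with 1 added and 2.90 with 50).

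Egr3 probe set 1421486_at, brighter by mean log2 over the 12 arrays but dimmer on every knockout treated array, showed no such rise. It read 43.9, 133 and 69.6 on knockout treated arrays, against 72.3, 172 and 40.7 on knockout untreated arrays, and 51.1, 105 and 95.1 on control treated arrays, against 59.1, 124 and 106 on control untreated arrays. The groups overlapped throughout, with log2 changes of -0.10 ± 0.33 in knockout cells (adjusted p = 0.887) and -0.18 ± 0.33 in control cells (adjusted p = 0.812). Over the 12 arrays the r between the Egr3 probe sets was 0.0144, so the Egr3 result is that of 1 probe set.

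Egr1, the best known early gene of the family, was bright on every array and had lower readings after treatment in control cells. It read 1981, 949 and 705 on knockout treated arrays, against 954, 2809 and 807 on knockout untreated arrays. It read 694, 678 and 545 on control treated arrays, against 1333, 2597 and 3767 on control untreated arrays. All 3 control treated arrays lay below all 3 control untreated arrays, whereas the knockout groups overlapped. The log2 change was -0.23 ± 0.53 in knockout cells (adjusted p = 0.831), with 1.04, -1.55 and -0.19 on the 3 dates, and -1.87 ± 0.53 in control cells (adjusted p = 0.0737), with -0.93, -1.92 and -2.76. The control value missed the threshold here and passed it with date as a random block (adjusted p = 0.0469), with 50 added before the log (0.0435), with trended robust variances (0.0441) and without knockout treated array 1 (0.0485).

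Of the IER genes, Ier3 rose in control cells and Ier2 had lower readings in both genotypes without a call. Ier3 read 2340, 2034 and 3662 on knockout treated arrays, against 1535, 1413 and 2045 on knockout untreated arrays. It read 4367, 3666 and 8214 on control treated arrays, against 1438, 1856 and 2630 on control untreated arrays. The control treated arrays were the highest of all 12. Its change (log2) was 0.65 ± 0.23 in knockout cells (adjusted p = 0.107), higher on all 3 dates, and 1.40 ± 0.23 in control cells (adjusted p = 0.00909). The control call was lost without control untreated array 1 or 3 or control treated array 3 (adjusted p up to 0.0633), without the date block (0.176) and with only the control groups in the fit (0.0686).

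Ier2, which encodes a nuclear protein of the early class, read 2293, 3285 and 2521 on knockout treated arrays, against 3527, 6014 and 4526 on knockout untreated arrays. It read 1865, 324 and 2343 on control treated arrays, against 3488, 1709 and 5766 on control untreated arrays. Treated readings were below untreated ones on every date in both genotypes, and the knockout groups did not overlap. In log2 terms it changed by -0.78 ± 0.60 in knockout cells (adjusted p = 0.465) and -1.51 ± 0.60 in control cells (adjusted p = 0.182). Without date 2 the control change was -1.10 and was called (adjusted p = 0.0363).

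Neither Nr4a1 nor Nr4a2 was called in either genotype. Nr4a1, induced by antigen and growth-factor signals in blood cells, read 491, 468 and 243 on knockout treated arrays, against 62.3, 259 and 85.3 on knockout untreated arrays. It read 205, 148 and 207 on control treated arrays, against 99.2, 253 and 236 on control untreated arrays. Knockout readings were higher with treatment on each date, with 1 overlap, and control readings were mixed. The log2 change was 1.65 ± 0.46 in knockout cells, just short of the threshold (adjusted p = 0.0529), and 0.02 ± 0.46 in control cells (adjusted p = 0.987). In 6 of 12 other settings the knockout value passed (adjusted p between 0.0334 and 0.048), among them the fit without date 2, and it also passed without control treated array 2 (0.0309) or knockout untreated array 2 (0.0370).

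Nr4a2 has 6 probe sets, and none was called. Their log2 changes with treatment ran between -0.34 and 0.59 in knockout cells (adjusted p between 0.239 and 0.964) and between -0.69 and 0.89 in control cells (adjusted p between 0.146 and 0.850). The signals were low, between 5.31 and 427 over the 12 arrays, and r between pairs of its probe sets ran between -0.708 and 0.644. The Nr4a2 readings are therefore those of probe sets that disagree.

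**Figure D2:**
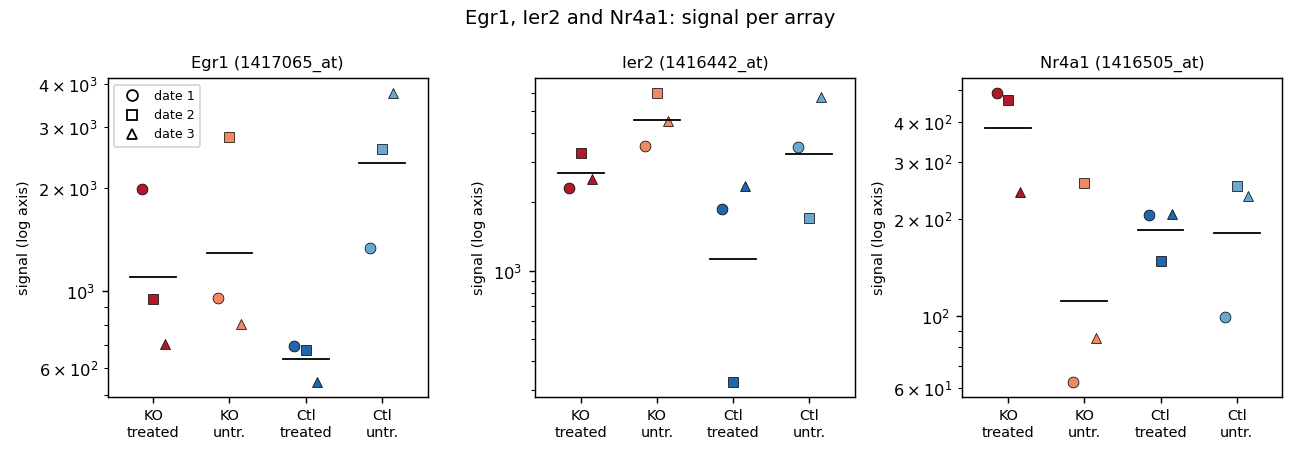
Signal of Egr1, Ier2 and Nr4a1 on each of the 12 arrays, on log axes that differ between panels, for knockout treated, knockout untreated, control treated and control untreated samples. Symbols give the date and each horizontal bar the geometric mean of 3 arrays. Egr1 is at 545 to 694 on the control treated arrays and at 1333 to 3767 on the control untreated arrays, while its knockout groups overlap.

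Whether the response to treatment depended on STAT5 was tested as the knockout response minus the control response. No member probe set passed this test, and no probe set on the whole array did (0.0% called, with 549 of 21363 at an unadjusted p under 0.05), so the members' 0 of 18 is no result about them. The adjusted p was 1.0 for all 18. Over all tested probe sets the median 95% confidence interval reached 0.967 to either side. Among the members the narrowest interval was -0.66 to 0.74 (Nab1 1417624_at) and the widest -0.91 to 3.22 (Nab1 1438819_at). Of the 18 probe sets, 4 had an unadjusted p under 0.05. The response of Egr3 on 1436329_at was larger in knockout cells by 2.59 ± 0.80 (unadjusted p = 0.00848), by 1.47, 3.54 and 2.76 on the 3 dates. For Nr4a1 it was larger by 1.63 ± 0.65 (unadjusted p = 0.0307), by 1.78, 1.55 and 1.56. The response of Ier3 had a difference of -0.75 ± 0.32 (unadjusted p = 0.0422) with -0.99, -0.46 and -0.80 on the 3 dates, and that of Nr4a2 on 1433422_at one of -1.23 ± 0.46 (unadjusted p = 0.0217), which was -0.63 without date 2. For Egr1 the difference was 1.64 ± 0.75, with an interval of -0.03 to 3.30.

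**Figure D3:**
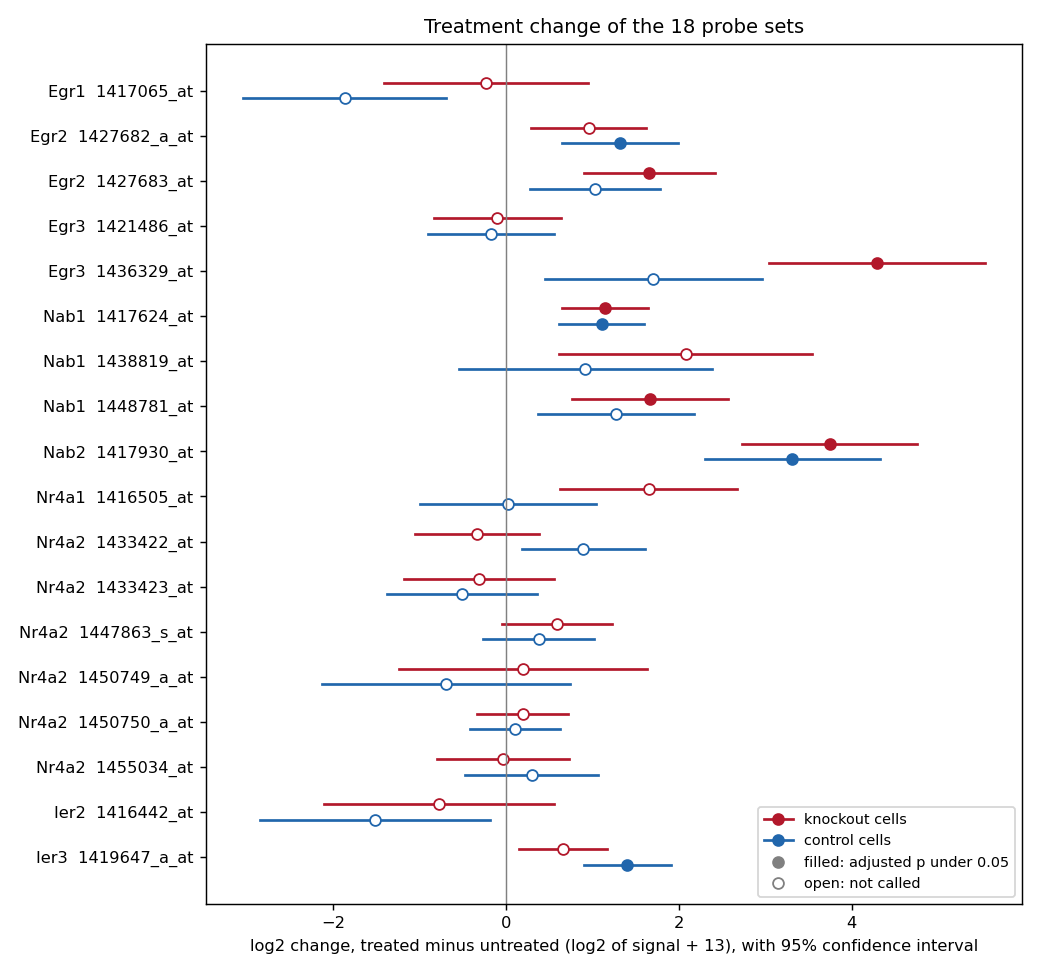
Log2 change with treatment of all 18 probe sets of the 9 genes in knockout cells and in control cells, with bars for 95% confidence intervals. Filled points have an adjusted p under 0.05, which holds for 5 probe sets in knockout cells and 4 in control cells.

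Knockout cells were also compared with control cells at each state. Among untreated cells 0 of 18 member probe sets were called, against 0.00936% of all tested probe sets (2 in all). Among treated cells 0 of 18 were called, against 0.0609% (13 in all). These comparisons share arrays with the treatment comparisons and add no independent evidence. The lowest adjusted p of a member was that of Ier3 in treated cells (0.368), where the knockout arrays lay below the control arrays with a log2 difference of -0.97 ± 0.23 and 95% confidence interval of -1.48 to -0.46. In treated cells the knockout and control arrays did not overlap for 4 of 18 probe sets, against 5.85% of all tested. These were Egr1, Nr4a1 and Nab1 on 1438819_at, higher in knockout cells by 0.78 ± 0.53, 1.0 ± 0.46 and 1.82 ± 0.66, and Ier3. The gap was narrow for Ier3 (highest knockout array 3662, lowest control array 3666) and Egr1 (lowest knockout array 705, highest control array 694). The Nab1 difference was 0.56 without date 2. In untreated cells 1 of 18 did not overlap, against 3.77% of all tested, namely Nab1 on 1417624_at with a difference of -0.26 ± 0.22.

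Other immediate early genes were read from a list of 57 on the array, 51 of them tested, using the brightest probe set of each gene. In knockout cells 16 of 51 rose and 5 fell, with a median log2 change of 0.73, against 5.79% called higher and 3.44% called lower among all genes. In control cells 6 of 51 rose and 7 fell, with a median of 0.34, against 3.33% and 1.81% of all genes. The list thus split in both genotypes. Maff, a small MAF factor, averaged 400 ± 191 on knockout treated and 11.0 ± 3.56 on knockout untreated arrays (SD, n = 3), and 327 ± 186 on control treated and 25.2 ± 19.1 on control untreated arrays. Its log2 change was 4.0 ± 0.47 in knockout cells (adjusted p = 0.00138) and 3.12 ± 0.47 in control cells (adjusted p = 0.00689).

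Fosl1, an AP-1 subunit of the FOS family, rose by 3.14 ± 0.38 on the log2 scale in knockout cells (adjusted p = 0.00165) and by 2.23 ± 0.38 in control cells (adjusted p = 0.0118). Cebpb, a factor of stress granulopoiesis, rose by 1.56 ± 0.30 in knockout and 1.68 ± 0.30 in control cells. Zfp36l1, which encodes an RNA-decay protein, rose by 2.11 ± 0.33 in knockout and 1.64 ± 0.33 in control cells. In knockout cells the rise also passed the test for Atf3 (4.18, adjusted p = 0.0422), Dusp5 (3.53), Dusp4 (3.52) and Tnfaip3 (3.18), whose control values were 2.65, 2.79, 2.25 and 2.21 (adjusted p = 0.201, 0.0625, 0.0732 and 0.0731). On control treated arrays of dates 1, 2 and 3 Atf3 read 2099, 399 and 1522, and Dusp5 read 491, 33.1 and 466. Dusp4 read 50.2, 37.9 and 319 there, and Tnfaip3 6032, 1158 and 7210. Each of these genes was lowest on date 2, whereas Fosl1 was highest on it (100, 475 and 251). The difference between the genotypes was not called for any of the 51 genes. Its median over the list was 0.79, against 0.03 over all genes, and 42 of 51 were above 0. This count includes date 2, whose control treated array had the highest Actb ratio (266). The list was not read without that date. These 51 values come from the same 12 arrays and are not independent of each other.

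Among the genes that fell were Fosb, Fos and Jun, which encode AP-1 subunits. Fosb averaged 63.8 ± 26.0 on knockout treated and 2443 ± 869 on knockout untreated arrays (SD, n = 3), and 86.1 ± 45.4 on control treated and 4438 ± 3096 on control untreated arrays. This is a log2 change of -4.99 ± 0.48 in knockout cells (adjusted p = 6.58e-04) and -5.30 ± 0.48 in control cells (adjusted p = 4.95e-04). Fos changed by -1.70 ± 0.45 in knockout and -3.39 ± 0.45 in control cells, Jun by -2.84 ± 0.44 and -2.76 ± 0.44, and Dusp1, a MAP kinase phosphatase, by -1.70 ± 0.36 and -2.57 ± 0.36, all called. Rhob was called in control cells (-2.60 ± 0.56, adjusted p = 0.0294) and not in knockout cells (-1.68 ± 0.56, adjusted p = 0.0922). Ier2 in both genotypes and Egr1 in control cells had readings in the direction of these genes, without a call. In knockout cells the Egr1 readings were mixed between dates. Nab2, Egr2 and Egr3 (1436329_at) had readings in the direction of Maff and Fosl1.

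**Figure D4:**
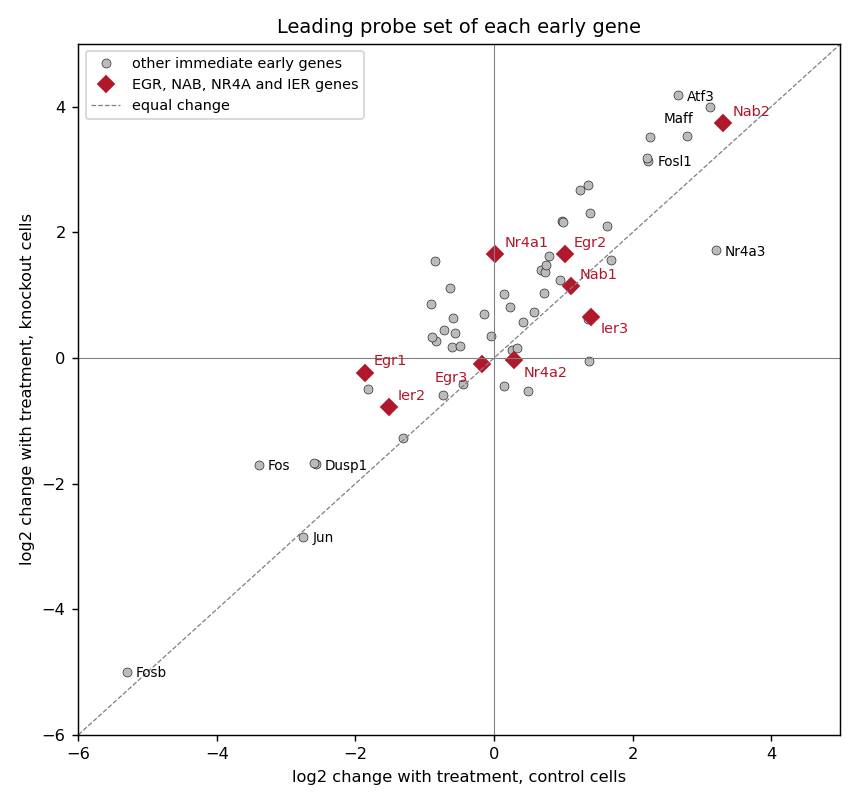
Log2 change with treatment in knockout cells (vertical axis) against control cells (horizontal axis) for the brightest probe set of each of 51 other immediate early genes in grey and of the 9 member genes in red, with a dashed line of equal change. Fosb, Fos and Jun lie at the lower left, Nab2 lies beside Maff at the upper right, and Egr1 lies among the genes with lower readings after treatment in control cells.

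A few heat shock genes fell in the same arrays. Of 12 tested, 3 fell in each genotype, against 3.44% of all genes in knockout and 1.81% in control cells, and 9 were not called. The list's median log2 change was -0.42 in knockout and -0.25 in control cells, and 4 of 12 were above 0 in each. Hspa1a changed by -4.02 ± 0.32 in knockout and -4.14 ± 0.32 in control cells, Hspa1b by -3.37 ± 0.50 and -3.93 ± 0.50, and Dnajb1 by -0.97 ± 0.24 and -1.12 ± 0.24, all chaperones. Hspa1a and Hspa1b are near-identical copies whose signals may be shared. The summed signal of the 12 genes was 65420 to 78536 on knockout treated arrays and 87086 to 139992 on knockout untreated arrays, and 60738 to 74734 on control treated arrays and 87841 to 148066 on control untreated arrays. The treated and untreated ranges did not overlap in either genotype, with Hspa1a at 551 to 981 and Hspa1b at 1029 to 1432 on knockout treated arrays, against 11623 to 15322 and 7903 to 23835 on knockout untreated arrays. The part of this shift in the early-gene results was not tested.

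Among 12 genes that act upstream of the early class (serum response factor, its ETS and MRTF partners, CREB factors and kinases) 1 rose in knockout cells, with a median of 0.29, and 0 in control cells, with a median of -0.05. That is close to the share of all genes called higher, 5.79% in knockout and 3.33% in control cells, and no result about the list. The riser was Crem, a cyclic AMP responsive factor, with 1.59 ± 0.43 (adjusted p = 0.0485) in knockout cells and 0.52 ± 0.43 in control cells (adjusted p = 0.547). Of 7 other partners of the EGR, NAB and NR4A proteins, 0 passed in knockout cells (median 0.19) and 1 in control cells (median -0.16). In control cells 3.33% of all genes were called higher and 1.81% lower, and 1 call among 7 genes is no result about the list. The gene called was Nr4a3, another NR4A receptor, already counted among the 6 risers of the other immediate early genes in control cells. Nr4a3 read 150, 2.06 and 147 on knockout treated arrays, against 6.2, 13.4 and 8.93 on knockout untreated arrays. It read 315, 237 and 212 on control treated arrays, against 8.60, 30.04 and 12.5 on control untreated arrays. Its log2 change was 1.71 ± 0.74 in knockout cells (adjusted p = 0.181) and 3.20 ± 0.74 in control cells (adjusted p = 0.0378), and the knockout treated array of date 2 read far below the other knockout treated arrays.

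The lineage circuit around PU.1, EGR2, NAB2 and GFI1 held 9 tested genes outside the members. Klf4, Id2 and Jun were also among the other immediate early genes above, so their calls are counted in both lists. In knockout cells 2 of the 9 genes rose and 2 fell, with a median of -0.64, against 5.79% and 3.44% of all genes. In control cells 2 rose and 3 fell, with a median of -1.12, against 3.33% and 1.81%. Maf, a macrophage factor, rose by 4.0 ± 0.50 in knockout cells (adjusted p = 0.00198) and 3.68 ± 0.50 in control cells (adjusted p = 0.00422). Id2, an inhibitor of E proteins, rose by 2.32 ± 0.33 and 1.38 ± 0.33. Jun fell as above, and Klf4, a monocyte factor, changed by -1.27 ± 0.30 in knockout and -1.32 ± 0.30 in control cells, both called. Irf8, needed for monocyte formation, was called in control cells (-1.39 ± 0.32, adjusted p = 0.0371) and not in knockout cells (-0.64 ± 0.32, adjusted p = 0.248). Neither Spi1, which encodes PU.1, nor Gfi1 was called. The log2 change of Spi1 was 1.0 ± 0.32 in knockout cells (adjusted p = 0.0816) and 0.83 ± 0.32 in control cells (adjusted p = 0.170). That of Gfi1 was -1.77 ± 0.56 in knockout cells (adjusted p = 0.0788) and -1.37 ± 0.56 in control cells (adjusted p = 0.195).

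Markers of other blood cells moved in part with treatment. Among all genes 5.79% were called higher and 3.44% lower in knockout cells, and 3.33% and 1.81% in control cells. With marker lists this short, 0 called is no result about a list. Of 6 monocyte and macrophage markers Cd14 rose in knockout cells, and Cd14 and Vcan rose in control cells. Their summed signal was 21533 to 35632 on knockout treated and 8929 to 24327 on knockout untreated arrays, and 18483 to 44072 on control treated and 8011 to 28200 on control untreated arrays. Of 10 progenitor markers 0 were called in either genotype. Only 1 of the 10 had a log2 change above 0 in each, with a median of -0.36 in knockout and -0.24 in control cells. Of 3 tested T and NK markers 0 were called in knockout cells and 1, Thy1, rose in control cells. Nkg7, which makes up most of that list's summed signal and was not called, read 1169 to 5597 on knockout treated and 8002 to 9645 on knockout untreated arrays (adjusted p = 0.0711), and 1425 to 4667 on control treated and 7710 to 8613 on control untreated arrays (adjusted p = 0.102). The list's sum was 1317 to 5803 on knockout treated and 8173 to 9801 on knockout untreated arrays, and 1976 to 4939 on control treated and 7923 to 8899 on control untreated arrays. Of 3 erythroid markers 0 were called in knockout cells and 1, Car1, fell in control cells. The 4 megakaryocyte and platelet markers, 3 B lineage markers, 3 mast cell and basophil markers and 3 stroma and endothelium markers gave no call. The summed B lineage signal was 322 to 689 on knockout treated and 745 to 1107 on knockout untreated arrays, and 314 to 408 on control treated and 596 to 959 on control untreated arrays, with no overlap in either genotype. The part of these shifts in the results for the early genes was not tested.

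Genes with the most similar pattern were sought by Pearson's r of date-centred log2 signal over the 12 arrays, among 11814 other genes, as a description, since the arrays share dates and the treatment. The 3 nearest to Nab2 were Msmo1 (0.991), Nrp2 (0.985) and Edem1 (0.983), and those nearest to Ier3 were Cish (0.986), Acvr2a (0.986) and Arhgap31 (0.973). Nab1 was nearest to Acbd5, Mbnl2 and Reep3 (0.985 each), and Egr2 to Gm19710 (0.971), Pear1 (0.962) and Inpp5a (0.960). Egr1 was nearest to Chrd (0.971), Neu1 (0.885) and Dnaja2 (0.882). Ier2 was nearest to Bckdk (0.985), Edem2 (0.982) and Trap1 (0.980). Nr4a1 was nearest to Prkab1 (0.942), Pdgfb (0.939) and 4930445K14Rik (0.936), Nr4a2 to Ipmk (0.938), Nxf1 (0.937) and Tbc1d15 (0.924), and Egr3 on 1421486_at to Rptn (0.915), Ggcx (0.891) and Agap1 (0.887). Within the 9 genes the closest pairs were Nab1 with Egr2 (0.867), Nab1 with Ier3 (0.853) and Nab1 with Nab2 (0.842), and the most opposed was Nab1 with Ier2 (-0.778).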

How the data were processed

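The values are linear intensity values as deposited, 1 per probe set and array, for 45101 probe sets on 12 single-colour Affymetrix mouse arrays, and per the submitters' processing notes they come from MAS5. Per the labels, the RNA was total RNA labelled with biotin. Version, scaling target and genome build are not given in the sources used here. The mean of each deposited array after trimming 2% at either end lay between 500.003 and 500.004, so the arrays share 1 scale, on which a broad rise lowers the rest. Mismatch subtraction in MAS5 leaves dim readings noisy. An array has no read depth, and the number of arrays limits the precision.

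Names came from the platform's annotation, in which 34945 probe sets had 1 symbol, 932 several, and 9224 none or were controls. Those with 1 symbol that were above 70.5495 (the overall median) on 3 or more arrays were tested (21363, of 11815 genes). The pseudocount was 13, the 20th percentile of all values. limma 3.58.1 in R 4.3.3 fitted log2(intensity + 13) to 4 groups with date as a block on all 12 arrays (6 residual and 4.21 prior degrees of freedom), for 5 comparisons: treatment in knockout cells, treatment in control cells, the difference of responses (knockout minus control), and knockout against control in untreated and in treated cells. p-values were adjusted by Benjamini-Hochberg over all tested probe sets, with a threshold of 0.05. Over all tested probe sets the median 95% confidence interval reached 0.684 to either side, and 0.967 for the difference of responses. Brightest probe sets by mean log2 stood for genes in lists and for similar patterns. The fit was tested on simulated data. Sequences are from RefSeq, build GRCm38.p6. Plots were made in Python 3.11.15 using matplotlib 3.10.9.

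The block was planned because titles give dates. Deviations from group means correlated at 0.367 to 0.750 in the 18 same-date pairs of arrays, and at -0.680 to 0.435 in the 36 pairs that shared neither date nor group. Members and gene lists were chosen with earlier results of these data known. Named were all probe sets of the 9 genes, up to 5 called genes with the largest rise and up to 5 with the largest fall of each list, the 3 genes most like each member, and any call or gene singled out from lists and markers after values were seen (Spi1, Gfi1, Nkg7 and the called markers).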

Additional observations from a re-analysis of the deposited data

How the results depend on the processing

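Each comparison was recomputed under up to 12 other settings and with each of the 12 arrays left out in turn. Treatment in knockout cells gave 5 higher member probe sets, and 2 without the date block (Nab2 and Egr3) and 8 without date 2. With 1 array left out the count ran from 2 to 7. Treatment in control cells gave 4 higher, and 0 without the date block, 1 with only the compared groups in the fit, 2 without a filter on dim probe sets, and 1 to 4 with 1 array left out. It gave 0 lower, and 1 with date as a random block, without date 2, with 50 added before the log or with trended robust variances, and 0 to 1 with 1 array left out. The one lower call was Ier2 without date 2 and Egr1 otherwise. Counts for the difference of responses and for knockout against control stayed at 0 in every setting that was run. The difference needs all 4 groups, so it has no fit of the compared groups alone. Over all tested probe sets treatment gave 1849 calls in knockout cells and 1004 in control cells. These became 343 and 172 without the date block, 949 and 215 with only the compared groups, and 1045 and 548 without the filter, and ran from 572 to 2550 and from 264 to 1219 with 1 array left out. Without date 2 treatment gave 1418 calls in control cells. Knockout against control gave 13 calls in treated cells, with 0 to 28 under the alternatives (2 without the date block), and 2 in untreated cells, with 0 to 3. The difference gave 0 to 2. No value at an unadjusted p under 0.05 changed sign under an alternative. Of 61 other values 34 did. The cause of these shifts was not tested. Quantile normalization moved the median of all tested probe sets by -0.07 in knockout and -0.06 in control cells, and median centring by -0.09 and -0.02.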
